A study of Mus musculus with 9 samples.

Results

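Chemokine receptors are G protein-coupled receptors that steer leukocytes along gradients of small secreted proteins, the chemokines. Transcripts of 9 of them (Ccr1, Ccr2, Ccr6, Ccr7, Ccr9, Cx3cr1, Cxcr2, Cxcr3 and Cxcr4), chosen by gene symbol out of 23420 symbols in the deposited table, were followed across 9 RNA sequencing libraries of Mac1+ bone marrow cells. Mac1 is an integrin of granulocytes and monocytes whose αM chain is encoded by Itgam. Each library came from 100 sorted cells of C57BL/6 mice. All 3 groups were homozygous for floxed Ezh2 and floxed Runx1, the genes of a polycomb methyltransferase and of a blood transcription factor. The DKOITD group (n = 4) carried in addition a Rag1Cre transgene and a Flt3 ITD/+ genotype, an internal tandem duplication in a receptor kinase. Mice of the ITD group (n = 2) were Flt3 ITD/+ without Cre, and those of the group called WT (n = 3) had the floxed alleles alone. Rag1 is switched on in lymphoid progenitors, which limits the model, because the labels do not say how many of the sorted myeloid cells descend from a cell with active Cre. Nor do they give age or tie each library to its own mouse, so a p-value here reflects spread among libraries that may be technical.

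In marrow and blood each receptor is known for particular myeloid or lymphoid cells. Ccr2 brings monocytes out of the marrow and Cx3cr1 marks patrolling monocytes and tissue phagocytes. Cxcr2 draws mature neutrophils out of the marrow while Cxcr4 holds cells there through Cxcl12. Ccr7 guides mature dendritic cells and lymphocytes to lymph nodes, Ccr9 guides thymocytes, gut-homing cells and plasmacytoid dendritic cells, Ccr6 is a receptor for Ccl20 on lymphocytes and some dendritic cells, Cxcr3 is the receptor of the interferon-induced chemokines Cxcl9, Cxcl10 and Cxcl11, and Ccr1 binds Ccl3, Ccl5 and related ligands on monocytes and neutrophils.

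Values are RPKM, reads scaled to gene length and sequencing depth, as the authors deposited them, and differences are in log2(RPKM + 1), a scale that understates changes of low genes. Whole reads could be recovered from the steps of the RPKM values. DKOITD 2 had the fewest, 2825728, and WT 1 the most, 23124435, and they show how many reads stand behind a level. The depth behind the RPKM differed from these reads by group. It was 1.13 to 1.44 times them in DKOITD, 0.853 and 0.919 times in ITD and 0.703 to 0.81 times in WT. Deposited levels thus stand lower in DKOITD against WT than levels per recovered read do. WT 2 correlated least with the other libraries. The label that opens with a number runs from 228 to 274 for DKOITD 1 to 3 and from 385 to 393 for the 6 other libraries, with no stated meaning, so DKOITD 4 is the member of its group that shares a number series with WT and ITD. Itgam, the transcript of the sort marker, was at 10.98, 33.3, 24.8 and 39.0 RPKM in DKOITD 1 to 4, at 78.1 and 97.3 RPKM in ITD and at 100.5, 143 and 90.3 RPKM in WT. It was detected in every library and was lower in each DKOITD library than in any other. Flt3 was at 34.5, 26.1, 39.2 and 8.80 RPKM in DKOITD, at 0 and 10.4 RPKM in ITD and at no more than 0.145 RPKM in WT.

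Across the comparison of DKOITD with WT, Ccr7 and Ccr2 rose, Cxcr2 and Cxcr4 fell, and Ccr1, Ccr6, Cx3cr1 and Cxcr3 did not pass the test (limma, Benjamini-Hochberg adjusted p under 0.05 over all genes tested). Ccr9 was too low to be tested. That is 4 of the 8 members that passed the filter on low values (at least 1 RPKM in at least 2 libraries), where 12.7% of all 10868 tested genes were called, 7.43% higher and 5.27% lower. Ccr6, Ccr7 and Cxcr3 passed that filter only through DKOITD libraries. Ccr6 and Ccr7, at 0 in both other groups, could thus only be higher in DKOITD, and so could Cxcr3 against ITD, where it was at 0. Against ITD only Ccr7 passed, where 0.212% of all genes were called, 0.156% higher and 0.0552% lower. Between ITD and WT no member passed.

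**Figure D1:**
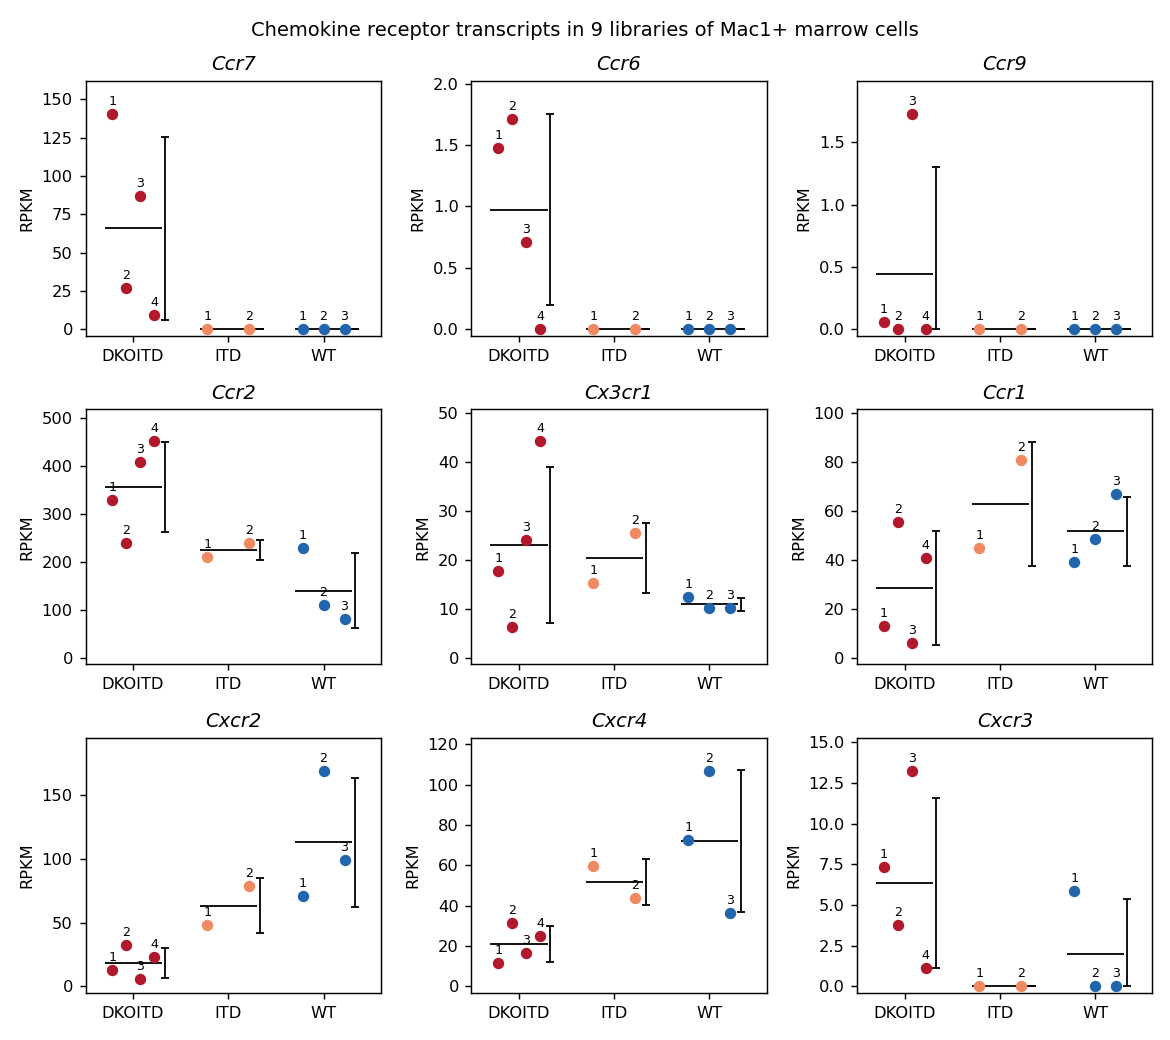
RPKM of the 9 receptors in each library (points, numbered by replicate) for DKOITD, ITD and WT; the horizontal line is the group mean and the bar to its right the SD, drawn no lower than 0. Ccr7 lies above 0 in the 4 DKOITD libraries and at 0 in the 5 others, and Cxcr2 runs the other way, from at most 32.4 RPKM in DKOITD to at least 70.5 RPKM in WT.

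Genomic positions are given in mm10, from GENCODE vM21. Ccr9 (123678439 to 123784330), Ccr1 (123962124 to 123968692) and Ccr2 (124101950 to 124113557) lie near each other on chromosome 9, which also holds Cx3cr1 (119901616 to 120069879). Levels of such clustered, related genes are uncertain as far as reads match more than one of them. Cxcr2 (74153989 to 74161246) and Cxcr4 (128588199 to 128592293) are on chromosome 1, Ccr7 (99144196 to 99155077) is on chromosome 11, Ccr6 (8236043 to 8257141) on chromosome 17 and Cxcr3 (101731535 to 101734269) on the X chromosome.

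The promoters of Ccr2, which rose, and of Cxcr2 and Cxcr4, which fell together, are shown with that of Ccr1, the neighbour of Ccr2 whose difference had the other sign. Each is the 250 bases before the RefSeq start site in GRCm38.p6, the assembly behind mm10, 5′ to 3′ on the strand of the gene. RefSeq and GENCODE starts can differ. Most of the Ccr2 window lies inside the GENCODE gene, which starts at 124101950, so it is not all upstream sequence by that source. The last bases of the Cxcr2 window also lie past the GENCODE start at 74153989. Runs of 6 capitals mark TGTGGT or its reverse complement ACCACA, the core letters of a RUNX motif, and other capitals mark CG dinucleotides, which are dense in the promoters that polycomb complexes are known to occupy.
Ccr2 (chr9:124101933-124102182, plus strand): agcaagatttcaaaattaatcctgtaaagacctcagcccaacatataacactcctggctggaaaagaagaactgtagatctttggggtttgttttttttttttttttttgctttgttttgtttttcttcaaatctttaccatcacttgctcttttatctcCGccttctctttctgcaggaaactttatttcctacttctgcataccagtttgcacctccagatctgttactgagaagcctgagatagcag
Ccr1 (chr9:123968693-123968942, minus strand): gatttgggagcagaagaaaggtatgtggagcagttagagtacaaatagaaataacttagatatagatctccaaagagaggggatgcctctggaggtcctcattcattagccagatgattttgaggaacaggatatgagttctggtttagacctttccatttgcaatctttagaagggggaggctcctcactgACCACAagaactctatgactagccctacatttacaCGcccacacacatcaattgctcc
Cxcr2 (chr1:74153744-74153993, plus strand): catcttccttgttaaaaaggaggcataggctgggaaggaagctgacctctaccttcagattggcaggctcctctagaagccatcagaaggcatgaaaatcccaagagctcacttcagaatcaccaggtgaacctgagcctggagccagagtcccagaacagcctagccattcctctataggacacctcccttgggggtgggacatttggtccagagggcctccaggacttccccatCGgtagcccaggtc
Cxcr4 (chr1:128592300-128592549, minus strand): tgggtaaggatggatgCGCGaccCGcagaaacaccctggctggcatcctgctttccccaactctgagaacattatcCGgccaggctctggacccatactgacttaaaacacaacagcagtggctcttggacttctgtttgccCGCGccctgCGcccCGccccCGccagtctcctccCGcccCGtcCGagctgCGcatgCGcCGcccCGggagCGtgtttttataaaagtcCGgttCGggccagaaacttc
Entries were matched for 8 of the 9 members, all but Ccr7. The RUNX letters were found in the windows of 3 of them: Ccr1, Cx3cr1 and Cxcr3. They occur in 14.0% of 32851 promoters of that length. Of the printed windows only that of Ccr1 holds them. Such a match is a description of letters and not of a bound site. Cxcr4 has 19 CG dinucleotides in its window, a count reached by 19.7% of all promoters, while Ccr1, Ccr2 and Cxcr2 have 1 each. The median over all promoters was 6, and 18.8% had at most 1.

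Ccr7, the lymph node homing receptor, was at 140.1, 26.7, 87.0 and 9.19 RPKM in DKOITD 1 to 4, resting on 3338, 193, 1860 and 272 recovered reads. It had 0 reads in both ITD and all 3 WT libraries. The groups do not overlap, and within DKOITD the highest and the lowest library lie far apart. A count of 0 allows up to 3 reads over the whole group, which would have given 0.0365 RPKM in WT and 0.0925 RPKM in ITD. The DKOITD mean of 65.8 ± 59.7 RPKM (SD, n = 4) was therefore at least 1802-fold higher than WT and at least 711-fold higher than ITD, where intervals and floors cover counting error only. The log2 difference was 5.44 ± 0.76 against WT (SE, adjusted p = 0.00232) and 5.44 ± 0.86 against ITD (SE, adjusted p = 0.0372). Both come from groups at 0, so their size depends on the pseudocount.

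The call of Ccr7 against WT remained with each of the 9 libraries left out in turn. As Ccr7 is at 0 in every WT and ITD library, leaving any of those out could not change the difference of 5.44. Only the spread and the genes tested then bore on the call. Against ITD it was lost without WT 3 (adjusted p = 0.051), DKOITD 1 (0.092), DKOITD 3 (0.114), ITD 1 (0.16) or ITD 2 (0.241). With a term for the series of label numbers, which leaves DKOITD 4 to carry the difference, it stood at 3.35 with an adjusted p of 0.256 against WT and of 1 against ITD.

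Dendritic cell markers rose with Ccr7 in DKOITD against WT. Of the 12 listed, 11 rose there, where 7.43% of all genes did. Against ITD 1 of the 12 rose, beside 0.156% of all genes. Between ITD and WT 1 rose, beside 0.0092%, with a median of 3.73 over the 12, although Ccr7 was at 0 in both groups. Their summed level ran from 9443 to 38093 RPKM in DKOITD, from 4219 to 11374 RPKM in ITD and from 44.3 to 1206 RPKM in WT. Zbtb46 was at 0 in every ITD and WT library, so this marker could only be higher in DKOITD. In bulk samples, fewer cells of a type and less RNA per cell cannot be told apart. The order of the libraries differed between Ccr7 and these markers. ITD 2 had a marker sum of 11374 RPKM and no Ccr7 read, whereas DKOITD 2 had a sum of 9443 RPKM with 26.7 RPKM of Ccr7. DKOITD 4 had 36604 RPKM of the markers, as much as DKOITD 3 with 36363 RPKM, but 9.19 RPKM of Ccr7 against 87.0 RPKM. The part of dendritic cell content in the level of Ccr7 was not tested.

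**Figure D2:**
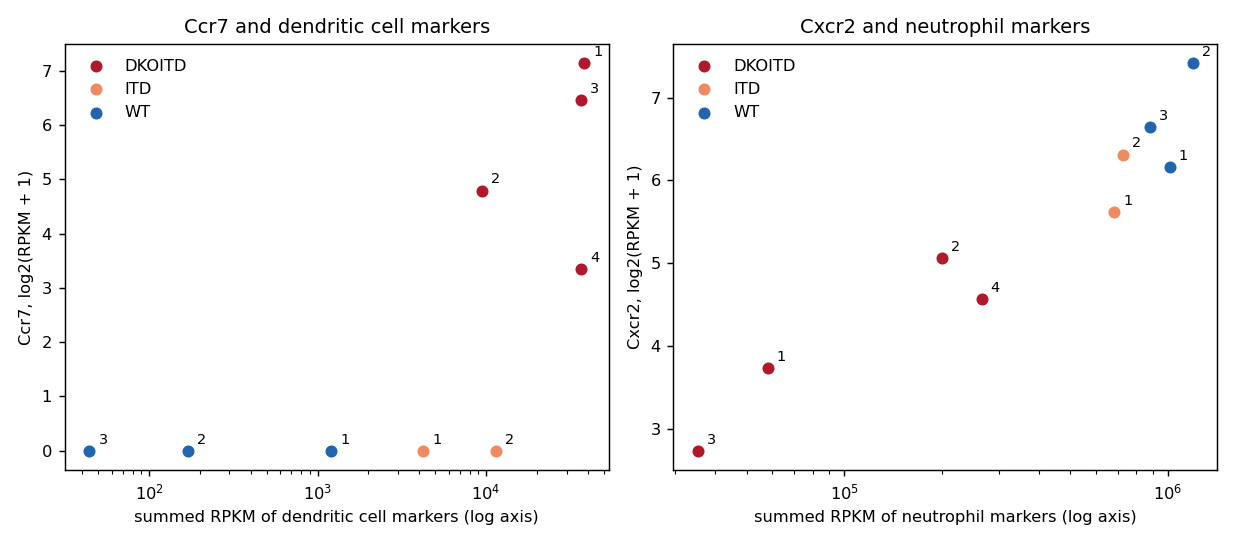
Left, Ccr7 as log2(RPKM + 1) against the summed RPKM of 12 dendritic cell markers on a log axis; right, Cxcr2 against the summed RPKM of 11 neutrophil markers; each point is a library, numbered by replicate. ITD 2 and DKOITD 2 lie close on the dendritic axis at 11374 and 9443 RPKM and differ in Ccr7, while Cxcr2 is lowest in DKOITD 3, the library with the lowest neutrophil sum (35412 RPKM).

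Ccr6 and Ccr9 were the lowest of the receptors. Ccr6 was at 1.47, 1.71, 0.711 and 0 RPKM in DKOITD 1 to 4, from 37, 13, 16 and 0 reads, and at 0 in the 5 other libraries. It did not pass against WT (0.88 ± 0.41, SE, adjusted p = 0.174) or against ITD (adjusted p = 0.4). Ccr9 was found in DKOITD 1 (3 reads, 0.0566 RPKM) and DKOITD 3 (82 reads, 1.73 RPKM) and had no read elsewhere. Neither gene was found in every DKOITD library, and DKOITD 4, which shares a label number series with the other groups, had a read of neither.

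Since Ccr6, Ccr7 and Ccr9 are also receptors of lymphocytes, lymphoid markers were read in the same libraries. The T cell genes Cd3e and Cd3g were at 0 in all DKOITD libraries, as were the B cell genes Ms4a1 and Pax5 and the NK genes Ncr1, Gzma, Prf1 and Il2rb. Among these, Cd3e, Pax5, Prf1 and Il2rb were at 0 in every ITD and WT library as well. Summed over 8 T cell markers the level was 2.29 to 9.22 RPKM in DKOITD, 2.44 to 17.6 RPKM in ITD and 9.16 to 13.7 RPKM in WT. The 8 NK markers summed to 65.9 to 134 RPKM in DKOITD, 54.9 to 194 RPKM in ITD and 100.5 to 342 RPKM in WT. Of 2 T cell markers tested 0 passed in DKOITD against WT, and of 2 NK markers 1 fell, beside 5.27% of all genes. Over 7 B cell markers the level was 43.5 to 76.9 RPKM in DKOITD, 7.65 to 23.3 RPKM in ITD and 5.16 to 15.5 RPKM in WT. Of the 3 B cell markers tested, 1 rose against WT, beside 7.43% of all genes. The 8 plasmacytoid dendritic cell markers summed to 104 to 345 RPKM in DKOITD, 64.6 to 92.0 RPKM in ITD and 28.7 to 42.9 RPKM in WT, with Siglech, Ly6d and Spib at 0 in every ITD and WT library. Of the 5 tested, 4 rose against WT, beside 7.43% of all genes, though any at 0 outside DKOITD could only be higher. The highest sums, 345 and 216 RPKM, were in DKOITD 1 and 3, where the Ccr9 reads were. Between these libraries the order differed, with 3 Ccr9 reads in DKOITD 1 and 82 in DKOITD 3. The part of plasmacytoid dendritic cells in the Ccr9 reads was not tested. Markers of eosinophils, basophils and mast cells summed to at most 7.95 RPKM in any library. Stem and progenitor markers summed to 8.43 to 17.1 RPKM in DKOITD, above all libraries of ITD (2.03 to 3.67 RPKM) and of WT (3.64 to 8.30 RPKM). Of the 3 tested, 1 rose against WT, where 7.43% of all genes rose. The part of stem and progenitor cells in the receptor levels was not tested. Erythroid markers summed to 1.30 to 9.503 RPKM in DKOITD and from 3.23 to 114 RPKM in WT, with 0.0468 and 179.9 RPKM in the ITD libraries, so the groups overlap.

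Ccr2, the monocyte egress receptor, was the most abundant receptor in every group by its mean. It was at 329, 238, 409 and 451 RPKM in DKOITD 1 to 4, at 210.4 and 239.7 RPKM in ITD and at 229, 109.8 and 80.9 RPKM in WT. Every DKOITD library lay above every WT library, although DKOITD 2 exceeded WT 1 by little, and the ITD libraries overlapped both groups. Ccr2 rose in DKOITD against WT by 1.44 ± 0.36 (SE, adjusted p = 0.0242), a ratio of means of 2.55. It did not pass against ITD (0.62 ± 0.41, SE, adjusted p = 0.4998) or between ITD and WT (0.82 ± 0.43, SE, adjusted p = 0.681).

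The call of Ccr2 against WT was lost without WT 3 (adjusted p = 0.0516), DKOITD 4 (0.0544), DKOITD 1 (0.057), WT 2 (0.0701) or DKOITD 3 (0.0719), and with no filter on low values (0.0741). With the number series as a term the difference was 1.82 with an adjusted p of 0.331. The 12 monocyte markers summed to 17551 to 34256 RPKM in DKOITD and 13181 to 33473 RPKM in WT, ranges that overlap. Of these markers 3 rose and 0 fell, where 7.43% of all genes rose. In ITD the sum was 42853 to 44972 RPKM, above the range of both other groups. A sum weighs the most abundant markers most, and the median log2 difference of the 12 markers reads otherwise. It was 0.74 in DKOITD against WT, 0.19 in DKOITD against ITD and 0.61 in ITD against WT.

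Cx3cr1, the receptor of patrolling monocytes, was at 17.8, 6.27, 24.0 and 44.3 RPKM in DKOITD, at 15.3 and 25.5 RPKM in ITD and at 12.4, 10.1 and 10.3 RPKM in WT. DKOITD spanned both other groups, with its extremes in DKOITD 2 and DKOITD 4. No difference passed (0.74 ± 0.53 against WT, SE, adjusted p = 0.364). Ccr1, the receptor of Ccl3 and Ccl5, was at 12.8, 55.4, 5.84 and 40.6 RPKM in DKOITD, at 44.8 and 80.6 RPKM in ITD and at 39.1, 48.6 and 67.0 RPKM in WT. DKOITD 1 and 3 were below all other libraries, while DKOITD 2 and 4 lay within the WT range. The difference from WT was -1.24 ± 0.62 (SE, adjusted p = 0.201) and that from ITD -1.50 ± 0.71 (SE, adjusted p = 0.338).

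Cxcr2, the neutrophil egress receptor, had the largest fall among the members. It was at 12.4, 32.4, 5.68 and 22.7 RPKM in DKOITD 1 to 4, at 48.0 and 78.4 RPKM in ITD and at 70.5, 169 and 99.2 RPKM in WT. All 4 DKOITD libraries lay below both other groups, and ITD overlapped WT. Cxcr2 fell by 2.71 ± 0.52 on the log2 scale against WT (SE, adjusted p = 0.00796), the WT mean being 6.18 times the DKOITD mean. Against ITD the difference was -1.94 ± 0.59 (SE, adjusted p = 0.127), and between ITD and WT it was -0.78 ± 0.62 (SE, adjusted p = 0.772).

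The call of Cxcr2 remained with each library left out in turn, the highest adjusted p being 0.0302. With the number series as a term it stood at -2.17 with an adjusted p of 0.427. Neutrophil markers fell too. Of 11 markers in the table, 10 fell in DKOITD against WT, where 5.27% of all genes fell, and none was at 0 in all libraries of a group. Against ITD 0 of the 11 passed. Their summed level was 58001, 200631, 35412 and 265970 RPKM in DKOITD 1 to 4, between 682709 and 728832 RPKM in ITD and between 879596 and 1193560 RPKM in WT. DKOITD 1 and 3 had the lowest sums and also the lowest Cxcr2 and Ccr1. Elsewhere the order differed. DKOITD 4 had a higher sum than DKOITD 2 but less Cxcr2 (22.7 against 32.4 RPKM). WT 1, with a sum of 1013036 RPKM, was above WT 3 with 879596 RPKM but had less Cxcr2 (70.5 against 99.2 RPKM). The part of neutrophil content in the level of Cxcr2 was not tested.

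Cxcr4, the marrow retention receptor, was at 11.3, 31.5, 16.3 and 24.8 RPKM in DKOITD, at 59.8 and 43.5 RPKM in ITD and at 72.4, 107 and 36.3 RPKM in WT. Every DKOITD library was below the others, though the gap between DKOITD 2 and WT 3 was small. Cxcr4 fell by 1.70 ± 0.43 against WT (SE, adjusted p = 0.0271), the WT mean being 3.43 times the DKOITD mean. The call was lost without WT 1 (adjusted p = 0.0697), DKOITD 1 (0.0761), DKOITD 3 (0.0772) or WT 2 (0.0896), and with no filter on low values (0.0788). Scaled to each library's own recovered reads, where the median of all genes moved from 0.17 to 0.74, Cxcr4 stood at -0.96 with an adjusted p of 0.107, and Cxcr2 at -1.98 with an adjusted p of 0.0129. Against ITD the difference of Cxcr4 was -1.34 ± 0.49 (SE, adjusted p = 0.206).

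Cxcr3, the receptor of interferon-induced chemokines, was at 7.32, 3.74, 13.2 and 1.12 RPKM in DKOITD, at 0 in both ITD libraries and at 5.88, 0 and 0 RPKM in WT. It was detected in every DKOITD library, and in WT only in WT 1, where 177 reads stood behind it. The difference did not pass against WT (1.63 ± 0.78, SE, adjusted p = 0.181) or against ITD (2.55 ± 0.88, SE, adjusted p = 0.182). Without WT 1 the difference from WT was 2.55 with an adjusted p of 0.0452, so this library decides the call. The WT libraries left in that fit are at 0, as are those of ITD, so Cxcr3 could only be higher in DKOITD. In DKOITD the mean level was at least 55.9-fold above the floor of 3 reads over the ITD group.

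**Figure D3:**
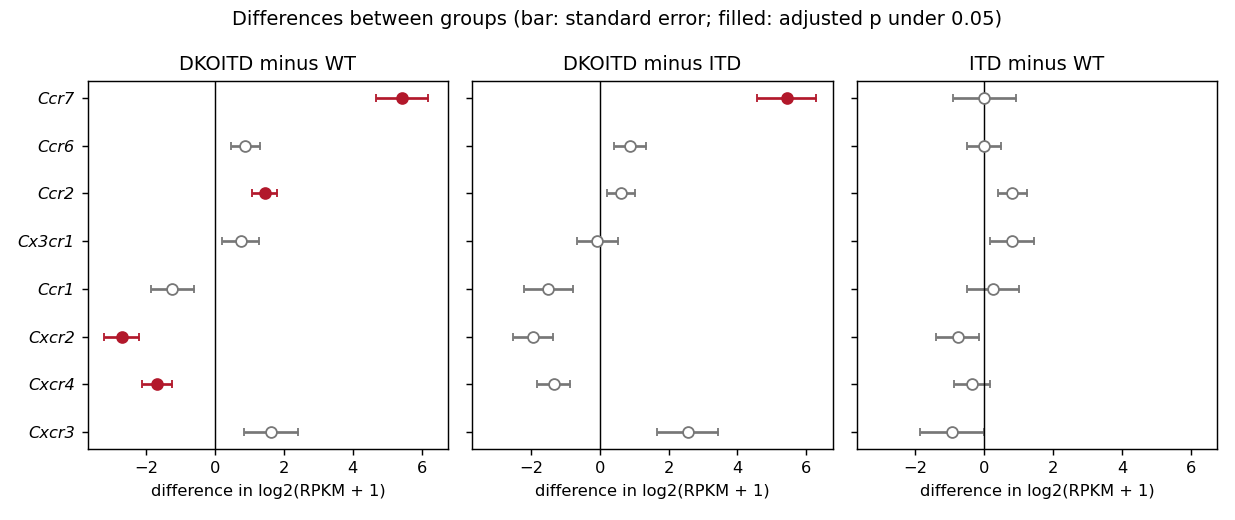
Differences in log2(RPKM + 1) with standard errors for the 8 tested receptors in the 3 comparisons, on a shared axis; filled points have an adjusted p under 0.05. In DKOITD minus WT, Ccr7 (5.44) and Ccr2 (1.44) lie to the right and Cxcr2 (-2.71) and Cxcr4 (-1.70) to the left, while in ITD minus WT no point is filled.

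In DKOITD against ITD, 4 of the 8 tested members did not overlap between the groups (Ccr7 and Cxcr3, which could only be higher, and Cxcr2 and Cxcr4, which were lower), where 31.3% of all tested genes did not overlap. Among all genes 17.3% were higher and 14% lower without overlap. The same 4 had an unadjusted p under 0.05, beside 15.7% of all genes. Against WT the groups did not overlap for Ccr2, Ccr7, Cxcr2 and Cxcr4, beside 25% of all genes (14.1% higher, 10.9% lower). These were also the 4 with an unadjusted p under 0.05 there, beside 30.2% of all genes. These comparisons share the DKOITD libraries. Between ITD and WT, Cx3cr1 alone of the 8 did not overlap, beside 19.1% of all genes (10.1% higher, 8.99% lower). No member reached an unadjusted p under 0.05 there, beside 7.93% of all genes, and 1 gene of 10868 was called (0.0092%).

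The makeup of the receptors within a library does not depend on how a column was scaled. Ccr2 held 67.6% ± 7.82 of the summed RPKM of the 9 receptors in DKOITD (SD, n = 4), 53.4% ± 3.09 in ITD (SD, n = 2) and 35.2% ± 15.8 in WT (SD, n = 3). Cxcr2 held 3.83% ± 3.11, 14.7% ± 2.87 and 29.4% ± 11.5 in the same order, and Cxcr4 4.28% ± 2.59, 12.6% ± 4.60 and 17.7% ± 5.89. Ccr7 took 26.3%, 6.75%, 15.5% and 1.55% in DKOITD 1 to 4. The sum behind these shares was 521 ± 87.2 RPKM for DKOITD (SD, n = 4). It was 423 ± 63.4 RPKM for ITD (SD, n = 2) and 389 ± 83.2 RPKM for WT (SD, n = 3).

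The ratio of Ccr2 to Cxcr2 was 26.6, 7.37, 72.0 and 19.9 in DKOITD 1 to 4, 4.38 and 3.06 in ITD and 3.25, 0.649 and 0.816 in WT. All DKOITD libraries had the higher ratio, by a margin that was narrowest between DKOITD 2 and ITD 1. WT 1 was above ITD 2, so the ratio does not separate ITD from WT. In WT 1 Ccr2 was more abundant than Cxcr2, whereas in WT 2 and WT 3 the order was reversed.

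**Figure D4:**
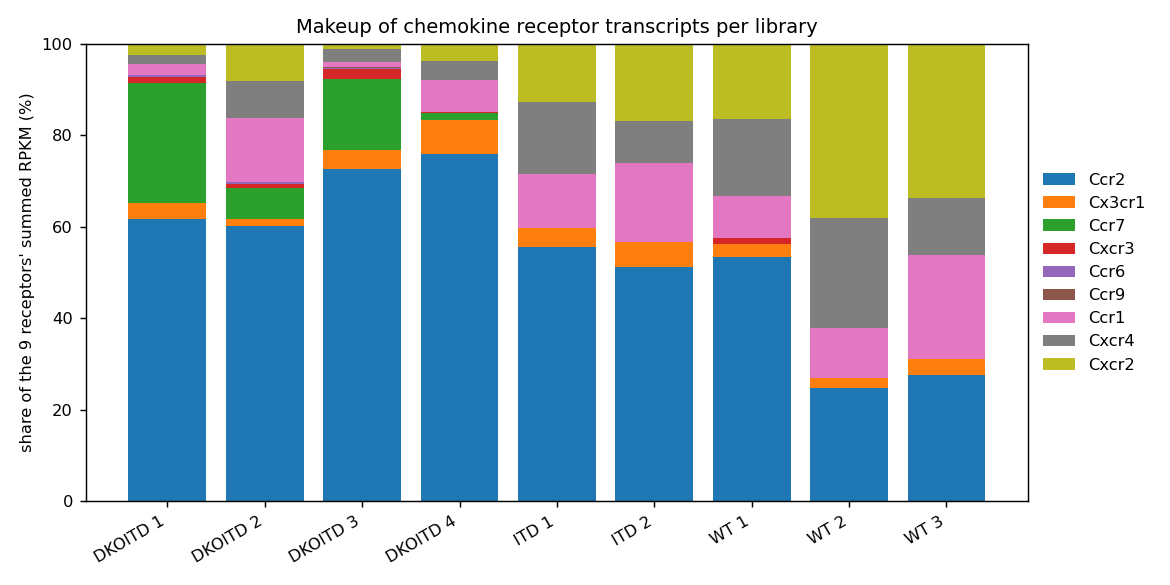
Share of each receptor in the summed RPKM of the 9 receptors, per library, as stacked bars from 0 to 100%. Ccr2 takes between 60.2% and 76.0% in the DKOITD libraries and between 24.7% and 53.4% in WT, and Ccr7 appears in the DKOITD bars alone.

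By mean level the order in DKOITD was Ccr2, Ccr7, Ccr1, Cx3cr1, Cxcr4, Cxcr2, Cxcr3, Ccr6 and Ccr9. Ccr2 was above every value of Ccr7, and every other pair of neighbours in this order overlapped over the 4 libraries. In ITD the order was Ccr2, Cxcr2, Ccr1, Cxcr4 and Cx3cr1, with the 4 others at 0. Ccr2 stood clear of Cxcr2 there and Cxcr4 of Cx3cr1, while Cxcr2, Ccr1 and Cxcr4 overlapped. In WT it was Ccr2, Cxcr2, Cxcr4, Ccr1, Cx3cr1 and Cxcr3, with Ccr6, Ccr7 and Ccr9 at 0. The first 4 of these overlapped with their neighbours, and Cx3cr1 was clear of both Ccr1 and Cxcr3.

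For each tested receptor the genes with the most alike profile were those with the smallest root mean square difference in log2(RPKM + 1) over the 9 libraries, after each gene was centred on its mean. For Cxcr2, which itself varied by 1.40 around its mean, they were Dok3, an adaptor of immune receptors (0.28), and the lactate transporter Slc16a3 (0.29). For Cxcr4, which varied by 0.94, they were the sorting receptor Sorl1 (0.13) and Arfgef1 (0.18). For Ccr2, which varied by 0.76, they were Npc2, a lysosomal cholesterol carrier (0.25), and Insig1, a regulator of sterol synthesis (0.26). For Ccr1 they were the iron exporter Slc40a1 (0.33) and coagulation factor F10 (0.39), around a spread of 1.09.

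For Ccr7, which varied by 2.87, the nearest profiles were Depdc7 (0.87) and Chn2 (0.99), a looser likeness than for Cxcr2 or Cxcr4. Depdc7 was at 42.3, 11.3, 35.2 and 16.2 RPKM in DKOITD and at no more than 0.873 RPKM elsewhere. For Cx3cr1 they were Parp9 (0.28) and the lysosomal lipase Lipa (0.33), for Cxcr3 Pus1 (0.39) and Bckdhb (0.48), and for Ccr6 D3Ertd254e (0.12) and Camk2a (0.15). The last pair rests on values below 2 RPKM.

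Of 24 chemokines that bind the 9 receptors, 8 had no read in any library, among them the Ccr7 ligands Ccl19 and Ccl21a, the Ccr6 ligand Ccl20 and the Cxcr2 ligands Cxcl1, Cxcl3 and Cxcl5. Of 11 tested, 3 rose in DKOITD against WT and 0 fell, where 7.43% of all genes rose and 5.27% fell (median 0.93, beside 0.17 for all genes). The median was nearly as high in ITD against WT, at 0.89 beside 0 for all genes. In DKOITD against ITD it was 0.04, beside 0.11. Ccl5, a ligand of Ccr1, was at 765, 124, 498 and 60.6 RPKM in DKOITD, at 0 and 0.161 RPKM in ITD and at 0, 78.6 and 0 RPKM in WT. In DKOITD against WT it rose by 5.76 ± 1.33 (SE, adjusted p = 0.0187), with DKOITD 4 below WT 2. The Ccr2 ligand Ccl2 rose by 3.29 ± 0.98 (SE, adjusted p = 0.0464) and the Ccr1 ligand Ccl9 by 1.28 ± 0.39 (SE, adjusted p = 0.0485).

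These ligand calls rest on few libraries. With 1 library left out, Ccl5 kept its call in 5 of 9 fits, Ccl2 in 3 and Ccl9 in 2. The number of called ligands was 0 without DKOITD 3 and 1 without DKOITD 1, DKOITD 2, DKOITD 4, WT 2 or WT 3. No ligand passed against ITD or between ITD and WT (limma, with 1 at an unadjusted p under 0.05 in each). Ccl6, another Ccr1 ligand, was the most abundant of the 24, between 809.7 and 1029.5 RPKM in the DKOITD libraries, at 766 and 1074 RPKM in those of ITD and from 212 to 1117 RPKM in WT, and did not pass (adjusted p = 0.172).

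Behind the receptors, 36 genes of G proteins, kinases, exchange factors, arrestins and regulators were tested. In DKOITD against WT 10 of them fell and 1 rose (5.27% and 7.43% of all genes; median -0.56 beside 0.17), while scaled to each library's own recovered reads 3 fell and 7 rose (2.25% and 23.1% of all genes). Arrb2, the arrestin that switches receptors off and carries them inside, was at 14.3, 15.8, 9.86 and 31.9 RPKM in DKOITD, at 67.4 and 74.9 RPKM in ITD and at 89.8, 175 and 80.01 RPKM in WT. It fell by 2.65 ± 0.41 (SE, adjusted p = 0.0035). The G protein β chain Gnb2 fell by 1.86. The regulator Rgs14 fell by 1.81 and the phospholipase Plcb2 fell by 1.70. The 6 other falls were Adrbk1, Gnai2, Rac2, Grk6, Fgr and Gng5. The γ chain Gng10 rose by 1.69 ± 0.25 (SE, adjusted p = 0.00309), from 89.2 to 121 RPKM in WT to between 289.9 and 430.4 RPKM in DKOITD.

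Under the scaling to own recovered reads the list had a median of 0.15 where that of all genes was 0.74. The count of 11 was 6 without DKOITD 1 and 6 without DKOITD 3. Plcb2 kept its call in 1 of 9 fits with a library left out, while Arrb2, Gnb2, Rgs14 and Gng10 kept theirs in all 9. None of the 36 passed against ITD (limma, with 11 at an unadjusted p under 0.05), and none between ITD and WT (2 at an unadjusted p under 0.05).

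Among 14 other chemoattractant receptors, 13 were tested, and 5 fell and 4 rose in DKOITD against WT (median -0.65, beside 0.17 for all genes, of which 5.27% fell and 7.43% rose). Scaled to own recovered reads 4 fell and 5 rose (median 0.11, beside 0.74 for all genes, of which 2.25% fell and 23.1% rose). The formyl peptide receptors Fpr2 and Fpr1, which sense bacterial peptides on neutrophils, fell by 3.39 ± 0.59 (SE, adjusted p = 0.0056) and 2.41 ± 0.53 (SE, adjusted p = 0.0138). Gpr84 fell by 2.42 and the complement receptor C5ar1 fell by 2.27, and the sphingosine phosphate receptor S1pr4 also fell (adjusted p = 0.0275). The oxysterol receptor Gpr183 rose by 3.20 ± 0.59 (SE, adjusted p = 0.00681), P2ry6 by 2.42, the complement receptor C3ar1 by 2.05 and Gpr35 by 1.68. Fpr2 was at 17.8, 81.9, 18.2 and 74.7 RPKM in DKOITD and at 216 to 693 RPKM in WT, lowest in DKOITD 1 and 3, as Cxcr2 was.

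The count of 9 was 5 without DKOITD 1 and 5 without DKOITD 3. With a library left out, S1pr4 kept its call in 5 of 9 fits, P2ry6 in 3, C3ar1 in 2 and Gpr35 in 6. None of the 13 passed against ITD (limma, with 6 at an unadjusted p under 0.05) or between ITD and WT (3 at an unadjusted p under 0.05).

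**Figure D5:**
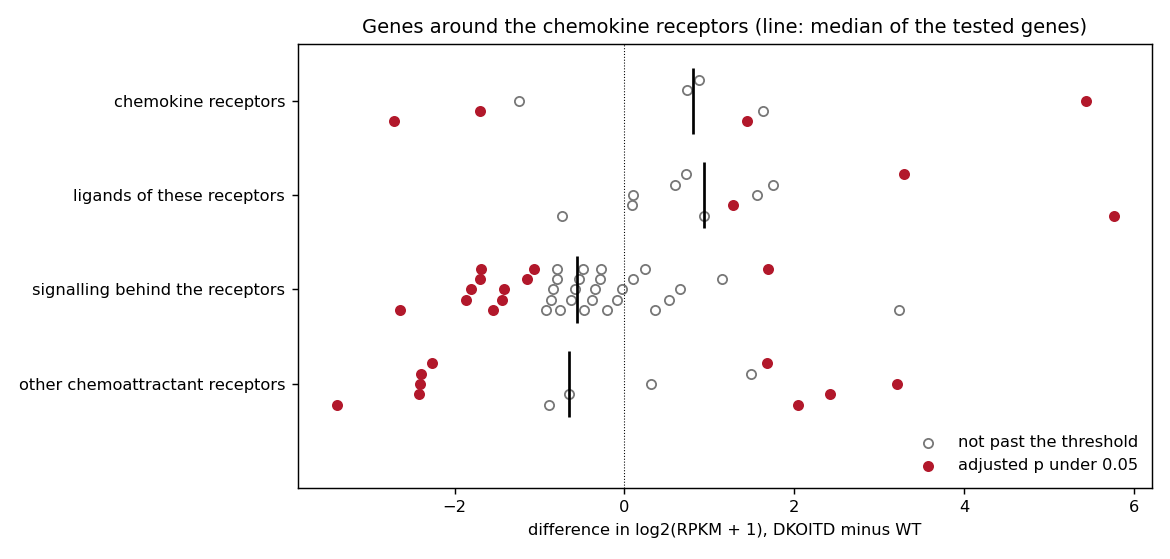
Differences in log2(RPKM + 1) between DKOITD and WT for the tested genes of the 9 receptors and of 3 related lists; filled points have an adjusted p under 0.05 and the vertical line is the median of the tested genes. Most signalling genes lie left of 0, with a median of -0.56 (0.15 when scaled to recovered reads), and the other chemoattractant receptors split into 5 falls and 4 rises.

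Read within the number series that DKOITD 4 shares with the 5 other libraries, the 4 receptors called against WT lay on the same side of all WT libraries. As DKOITD and WT do not overlap for these 4, DKOITD 4 could not lie elsewhere. Its levels are thus given as description and add no support. Ccr2 was at 451 RPKM in DKOITD 4 and at most 229 RPKM in WT, and Ccr7 at 9.19 RPKM and 0. Cxcr2 was at 22.7 RPKM and at least 70.5 RPKM in WT, and Cxcr4 at 24.8 RPKM and at least 36.3 RPKM. Cx3cr1, which was not called, also lay above WT, at 44.3 RPKM in DKOITD 4 and at most 12.4 RPKM in WT. In DKOITD 2, outside this series, it was at 6.27 RPKM, below WT. The remaining members did not separate. Ccr6 and Ccr9 were at 0 in DKOITD 4 as in WT, Ccr1 was within the WT range, and Cxcr3 at 1.12 RPKM was below the 5.88 RPKM of WT 1. This is 1 library, so no spread stands behind it. With the series as a term, 0 of the 8 members passed against WT or against ITD (limma, with 4 and 1 at an unadjusted p under 0.05).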

How the data were processed

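RNA of 100 sorted Mac1+ cells per library was prepared with Smart-seq2, an unstranded method, per the labels' protocols. The authors deposited RPKM per gene symbol, with 1 column for each of 9 libraries. Per the submitters' processing notes, the build was mm10 and the tools named were HTSeq 0.6.1p1, STAR 2.4.2a and SAMtools 1.1, with their roles not stated. No source here gives the annotation, the counting settings or the RPKM denominator. Reads of overlapping or antisense partners may be mixed, as strand was not kept.

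Whole reads were recovered from the RPKM steps for 15564 of 15566 genes above 0 (tolerance 0.0001 reads, smallest fitting length from 20 to 30000 bp). The denominator of the columns was 0.703 to 1.44 times these reads, higher in every DKOITD library than in ITD, and lowest in WT. As PCR copies carry no molecular identifiers, counting floors cover counting error only.

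Genes with at least 1 RPKM in at least 2 libraries (10868) were fitted as log2(RPKM + 1) with limma 3.58.1 in R 4.3.3 (trend), all 9 libraries in one fit with group as the only factor, and tested two-sided with Benjamini-Hochberg adjustment (threshold 0.05). Groups and replicate numbers come from the titles. No 2 libraries held identical values. Same-numbered libraries did not deviate together (7 pairs, r of deviations -0.0444 to 0.0707), so the numbers were not used as pairs.

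The members and lists were chosen with earlier results of these data known. The rule for named genes took all 9 members, up to 4 genes of each other list past the threshold in each direction, and the 2 most alike profiles per member, leaving out predicted models. C5ar1, Ccl6, the ligands at 0 and the 6 further signalling genes that fell were named after their values were seen. The list of other chemokine receptors is not reported here. Alternatives were another pseudocount, no filter, quantile normalization, scaling to recovered reads, a replicate block, a term for the label number series, the 2 compared groups alone, library weights and each library left out. Leaving out WT 2 and DKOITD 2 together was added after seeing the data.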

Additional observations from a re-analysis of the deposited data

Results flagged for a closer look

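In the DKOITD group, the only group of a size that was examined for single stray libraries, 2 of the named genes had 1 library far from the other 3. Ccr9 was at 1.73 RPKM in DKOITD 3 and at no more than 0.0566 RPKM in the others. The nucleotide receptor P2ry6 was at 14.4 RPKM in DKOITD 2 and between 56.1 and 63.3 RPKM in the others. Chance marks about 1 in 20 such groups, and 27 genes were examined.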

How the results depend on the processing

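For the genes that the naming rule took, none of the called differences changed sign under the alternatives run. The set of signalling genes called did change, from 10 falls and 1 rise to 3 falls and 7 rises when scaled per recovered read. Under that scaling Arrb2, Gnb2 and Rgs14 still fell and Gng10 still rose. Between DKOITD and WT, 1380 genes passed. That count was 733 with no filter on low values, 2782 scaled per recovered read, 4 with a term for the label number series, and 541 to 1962 with 1 library left out (611 without DKOITD 1, 541 without DKOITD 3, 766 without WT 2). The 4 called receptors became 2 with no filter, 0 with the series term and 2 to 4 with 1 library left out. The ligands (3) gave 1 with a pseudocount of 0.1 RPKM or with library weights, 0 with no filter or the series term, and 0 to 3 with a library left out. The signalling genes (11) gave 0 with the series term and 6 to 11 with a library left out. The other chemoattractant receptors (9) gave 4 with no filter, 0 with the series term and 5 to 8 with a library left out. Between DKOITD and ITD, 23 genes passed. That count was 42 after quantile normalization, 268 per recovered read, 0 with the series term, 94 with only these groups fitted, 526 with library weights, and 0 to 156 with a library left out (1 without DKOITD 1 or ITD 1, 0 without DKOITD 3 or ITD 2, 156 without DKOITD 4, 57 without WT 2). The receptors (1) gave 0 with no filter or the series term and 0 to 1 with a library left out. The ligands (0) gave 1 per recovered read, with only these groups or with weights, and 0 to 1 with a library left out. The signalling genes (0) gave 3 with weights and 0 to 2 with a library left out, and the other chemoattractant receptors (0) gave 1 per recovered read, 5 with weights and 0 to 1 with a library left out. Between ITD and WT the 1 gene called became 2 with a pseudocount of 0.1 RPKM, 3 with no filter and 0 to 47 with a library left out (47 without WT 3). With the replicate block, whose numbers do not pair the samples, the counts were 884 genes for DKOITD against WT, 57 for DKOITD against ITD and 0 for ITD against WT. Under this replicate block Ccr2 had an adjusted p of 0.0708, and 5 other chemoattractant receptors passed against WT and 2 against ITD. The share of calls that rose against WT was 58.5%, but 46.9% after quantile normalization and 91.1% per recovered read. The cause of these changes was not tested. At these depths a gene at 0 is known only to lie under its floor.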
